A study of Mus musculus with 8 samples.

Results

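The 7 genes described here encode filament and synuclein proteins of neurons, and were selected by symbol: Ina, Nefl, Nefm, Nefh and Prph of the neuronal intermediate filaments, and Sncb and Sncg of the synucleins. They are 7 of 19938 mouse genes that had a probe set annotated with exactly 1 symbol. Where a gene had several such probe sets, the 1 with the highest mean over the 8 arrays was used, which was a choice to make for Ina alone. The genes were put together with early results of Ina, Sncg and Nefl known, so their early differences are given as a description without a test, and only their late differences are tested.

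Neurofilaments are the intermediate filaments of axons. They assemble from a light (Nefl), a medium (Nefm) and a heavy chain (Nefh) together with alpha-internexin (Ina) in the central nervous system or peripherin (Prph) mainly in neurons that project to or lie in the periphery, and they set the calibre of myelinated axons. Beta-synuclein (Sncb) is a small soluble protein of presynaptic terminals throughout the brain, and gamma-synuclein (Sncg) is known from peripheral neurons, motor neurons and some brainstem neurons.

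RNA came from the whole brain of male C57BL/6J mice at postnatal day 70. Their mothers had been injected under the skin with ethanol at 2.5 g/kg, in 2 doses on each treatment day, or with saline alone. Treatment fell on gestational days 8 and 11 (early exposure) or 14 and 16 (late exposure). Each of the 4 groups, early ethanol, early saline, late ethanol and late saline, was measured on 2 arrays (Affymetrix Mouse Gene 1.0 ST), each holding RNA pooled from 3 males of different litters. Single mice are therefore not seen, all SD values are over n = 2 arrays, and their number limits the precision. In RNA of a whole brain, fewer cells of a type and less RNA per cell cannot be told apart. Values are log2 expression from robust multi-array averaging (RMA), and a log2 difference is ethanol minus saline. Levels were compared within a timing only, because array medians of 6.74 to 6.84 (early) lay apart from those of 7.21 to 7.30 (late), and the level of a gene was not set against that of another gene.

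The tissue carried the marker genes of brain. All 12 measured general neuron genes, all 11 oligodendrocyte genes and all 10 astrocyte genes lay above background at both timings, while 0 of 7 genes of peripheral sensory ganglia did. Background was taken as the 95th percentile of 1372 probe sets of olfactory and vomeronasal receptor genes. By the same measure 6 of the 7 genes described here were above background at both timings. The exception was Prph, with a mean of 6.40 in the early arrays against a background of 6.73, and of 6.68 in the late arrays against 7.73.

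The promoter windows of 4 of the 7 genes were at hand, and they are shown because 2 of them belong to the genes with the largest early differences, Ina and Sncg, and 2 to genes with smaller ones. Each is the 250 bases before the transcription start on the strand of the gene (RefSeq, GRCm38.p6), written 5′ to 3′ in lower case. Capitals mark GGGCGG, the letters of a GC box, and TATAAA, those of a TATA box, both searched on either strand.
Ina (chr19:47014431-47014680, plus strand): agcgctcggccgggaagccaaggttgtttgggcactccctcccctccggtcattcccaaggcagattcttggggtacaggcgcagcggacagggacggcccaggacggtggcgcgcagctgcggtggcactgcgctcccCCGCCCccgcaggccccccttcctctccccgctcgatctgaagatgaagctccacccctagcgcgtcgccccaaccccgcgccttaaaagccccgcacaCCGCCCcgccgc
Sncg (chr14:34374670-34374919, minus strand): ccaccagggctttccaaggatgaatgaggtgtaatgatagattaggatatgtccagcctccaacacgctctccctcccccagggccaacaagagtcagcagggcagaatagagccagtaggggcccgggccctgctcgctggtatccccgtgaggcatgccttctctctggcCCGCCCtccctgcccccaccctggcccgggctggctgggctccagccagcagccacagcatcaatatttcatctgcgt
Sncb (chr13:54766596-54766845, minus strand): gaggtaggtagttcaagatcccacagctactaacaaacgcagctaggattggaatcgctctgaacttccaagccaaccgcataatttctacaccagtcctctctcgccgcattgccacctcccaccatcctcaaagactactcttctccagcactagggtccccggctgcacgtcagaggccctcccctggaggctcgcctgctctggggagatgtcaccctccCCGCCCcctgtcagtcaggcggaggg
Prph (chr15:99054924-99055173, plus strand): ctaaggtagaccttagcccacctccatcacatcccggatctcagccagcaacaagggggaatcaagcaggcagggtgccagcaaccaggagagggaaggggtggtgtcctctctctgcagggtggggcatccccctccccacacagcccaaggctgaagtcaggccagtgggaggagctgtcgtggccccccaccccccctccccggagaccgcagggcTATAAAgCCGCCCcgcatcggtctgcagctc

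The window of Ina held 2 GC boxes and those of Sncg, Sncb and Prph 1 each. TATAAA was found in the window of Prph alone, with its first base 31 bases before the start. Among all 32851 promoter windows of the same length, 32.7% held GGGCGG and 12.4% TATAAA. A match describes these letters only.

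The first comparison concerned ethanol on gestational days 8 and 11. The mean of all 7 genes was higher in ethanol than in saline, with a median log2 difference of 0.14, while the median of all probe sets was -0.020 and 40.2% of them lay above 0. Ina and Sncg stood highest, at 0.35 and 0.31 (1.27- and 1.24-fold), followed by Nefl at 0.20, and the other 4 genes were between 0.0345 and 0.14. In 4 of the 7 genes both ethanol arrays lay above both saline arrays, as they did in 7.5% of all probe sets. They lay below in 0 of the 7, against 18.9%. The study's thresholds are an unadjusted p below 0.05 and at least a 1.2-fold difference. Applied to the p of a limma fit with moderated variances, they were passed by Ina and Sncg, 2 of the 7 genes. Of all probe sets, 0.923% passed them in this way. The study's own p-values came from an analysis of variance instead. These early counts describe genes that were put together partly for them. Among 23410 probe sets fitted in limma for early exposure, 0 passed the adjusted threshold of 0.05, and 401 had an unadjusted p under 0.05. An unmoderated test of the 4 early arrays gave 0 and 797. In that test neither Ina nor Sncg had an unadjusted p under 0.05, and Nefh, whose fold was 1.04, was the 1 gene of the 7 that did. Passing or missing an early threshold is no test of the 7 genes, because early values of Ina, Sncg and Nefl were known beforehand.

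**Figure D1:**
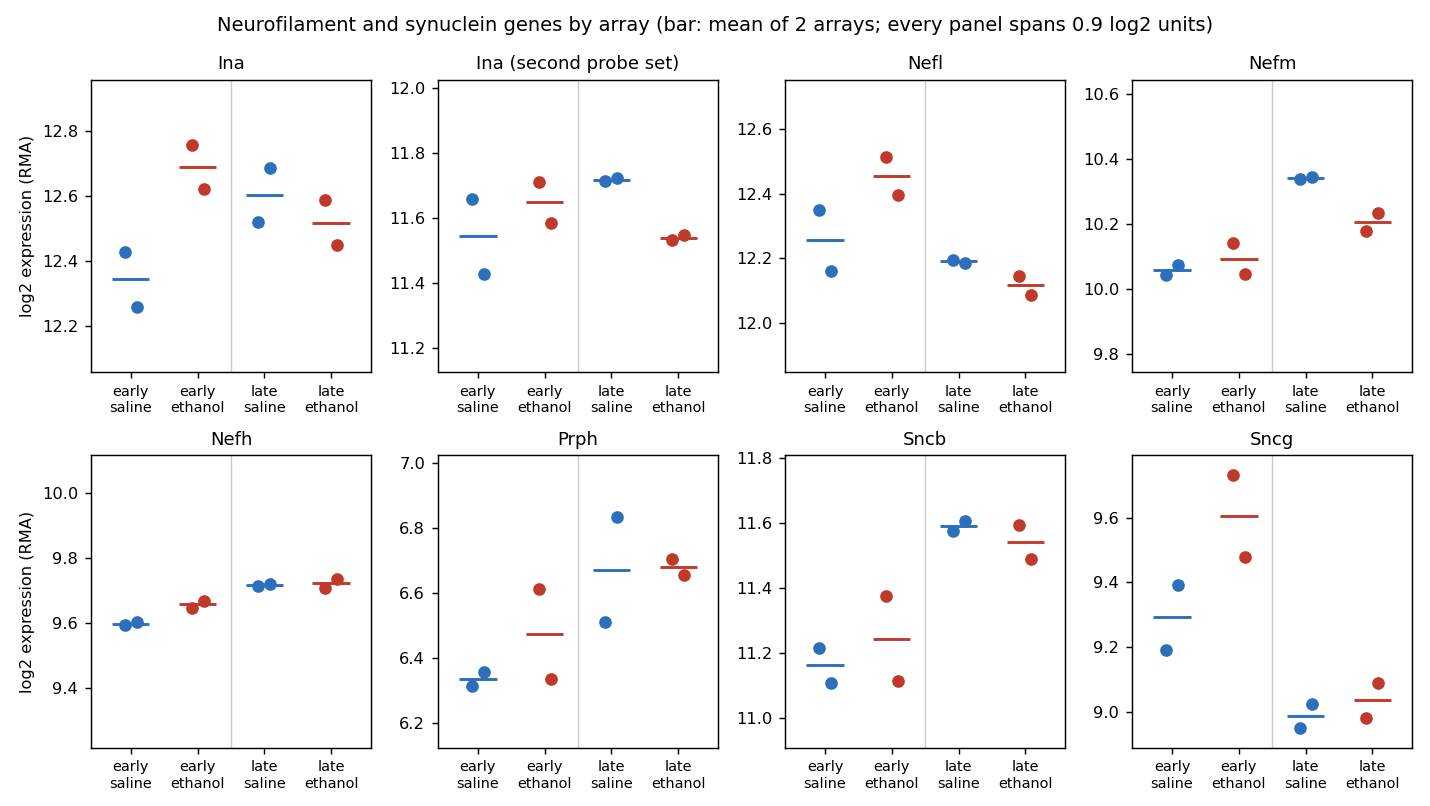
Log2 expression (RMA, vertical axis) of the 7 genes and the second Ina probe set in saline (blue) and ethanol (red) arrays at each timing, where each point is 1 array and each bar a group mean. Both early ethanol arrays lie above both early saline arrays for Ina, Nefl, Nefh and Sncg, and both late ethanol arrays lie below both late saline arrays for Nefl and Nefm and for the second Ina probe set.

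Ina encodes alpha-internexin, the fourth subunit of central neurofilaments. It was measured by 2 probe sets. The one used here, 10463737, was at 12.76 and 12.62 in the early ethanol arrays and at 12.43 and 12.26 in the early saline arrays. The groups did not overlap, and the difference was 0.35 (SE 0.10). The second probe set of Ina, 10463732, was at 11.71 and 11.59 in early ethanol and at 11.66 and 11.43 in early saline. Here the groups overlapped and the difference was 0.11 (SE 0.096). In the annotation the second probe set is tied to the RefSeq mRNA of Ina and to further transcript records, and the one used to 1 of these records only, a cDNA. The larger early difference of Ina was thus that of the probe set that does not list the RefSeq mRNA.

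The gap between both Ina probe sets within an array shows the same disagreement. The level of 10463737 minus that of 10463732 was 1.05 and 1.04 in the early ethanol arrays and 0.77 and 0.83 in the early saline arrays. The ethanol arrays had the wider gap, by 0.24 on average, against SDs of 0.0088 and 0.042. In the late arrays the gap was 1.06 and 0.90 in ethanol and 0.81 and 0.97 in saline, where the groups overlapped and their means were 0.092 apart. The 2 probe sets therefore differed unequally between early ethanol and early saline, and which of them follows the Ina transcript more closely was not tested.

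Nefl encodes the light chain, the core of the filament. It was at 12.51 and 12.40 in early ethanol and at 12.35 and 12.16 in early saline. Both ethanol arrays were above both saline arrays, by a narrow margin between ethanol replicate 2 and saline replicate 1, and the difference was 0.20 (SE 0.091). Nefm, the medium chain, is encoded beside Nefl on mouse chromosome 14, with a pseudogene as the 1 annotated gene between them. Nefm was at 10.14 and 10.05 in early ethanol and at 10.04 and 10.08 in early saline. Its groups overlapped, and the difference was 0.0345 (SE 0.077).

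Nefh encodes the heavy chain, whose long phosphorylated tail reaches out from the filament. It was at 9.65 and 9.67 in early ethanol and at 9.60 in both early saline arrays. The arrays of each group lay close together (SD 0.015 in ethanol and 0.0044 in saline), so the groups were apart although the difference was 0.059 (SE 0.072). The 3 chains of the neurofilament triplet thus did not share 1 size of difference in the early arrays, with 0.20, 0.0345 and 0.059 for the light, medium and heavy chain, although their SEs of 0.072 to 0.091 leave room for a common value.

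Prph encodes peripherin, found in central neurons that send axons outside the brain. It was at 6.61 and 6.33 in early ethanol and at 6.31 and 6.36 in early saline. In all 4 arrays it lay below the background of that array, by 0.060 in ethanol replicate 1 and by 0.33 to 0.47 in the others. Its early difference of 0.14 (SE 0.13) was therefore one between values at background.

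Sncb encodes beta-synuclein of presynaptic terminals. It was at 11.37 and 11.11 in early ethanol and at 11.21 and 11.11 in early saline. Ethanol replicate 1 was the highest of the 4 arrays and the groups overlapped, with a difference of 0.082 (SE 0.10). Sncg, the gamma-synuclein, was at 9.73 and 9.48 in early ethanol and at 9.19 and 9.39 in early saline. Both ethanol arrays were above both saline arrays and the difference was 0.31 (SE 0.11). The 2 synuclein genes differed in size of difference, by 0.31 against 0.082, without a test of that contrast.

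**Figure D2:**
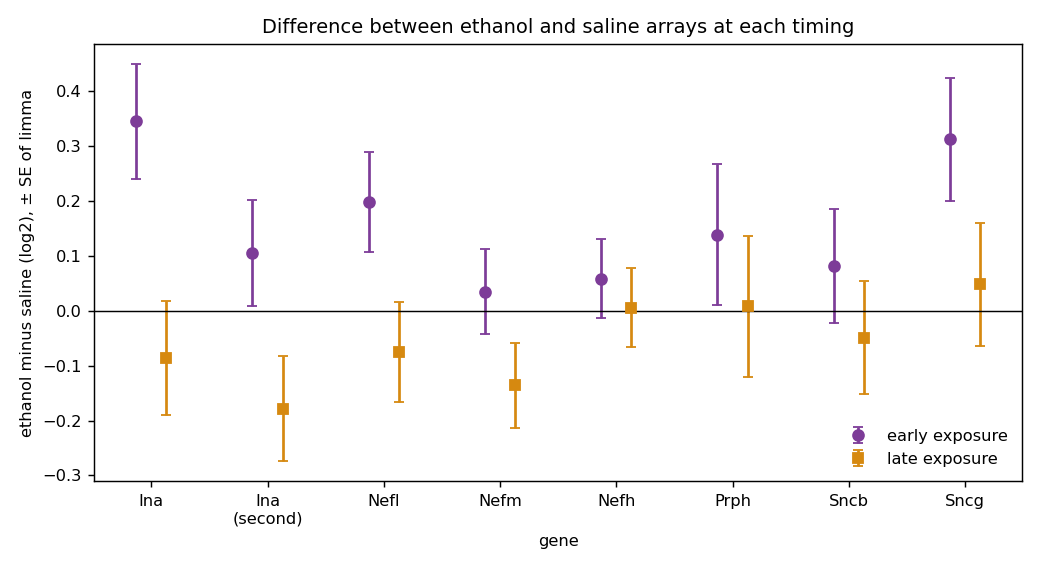
Log2 difference, ethanol minus saline (vertical axis), for each gene and the second Ina probe set (horizontal axis), with the SE of the limma fit as error bars, in early (purple circles) and late exposure (orange squares). The early values all lie above 0, from 0.0345 for Nefm to 0.35 for Ina, and the late values lie between -0.18 for the second Ina probe set and 0.048 for Sncg.

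Single arrays moved these early values. Without ethanol replicate 1, which was the highest early array for 6 of the 7 genes, the median was 0.069, and 4 of the 7 genes were above 0, with Nefm at -0.014, Sncb at -0.049 and Prph at -0.00041. In that setting the difference of Sncg was 0.19. The mean of 12 general neuron genes was highest in the same array, at 0.16 above the mean of the early arrays. Without ethanol replicate 2 the median was 0.26, with Sncg at 0.44, Sncb at 0.21, Prph at 0.28 and Nefm at 0.083. Nefl was at 0.10 without saline replicate 2 and at 0.29 without saline replicate 1, and Sncg at 0.21 without saline replicate 1. Ina ranged from 0.26 to 0.43 and Nefh from 0.049 to 0.069 over the 4 arrays left out in turn. Ina, Nefl, Nefh and Sncg stayed above 0 without any 1 array, which had to follow because their groups did not overlap. Quantile normalization over all 8 arrays lowered the difference of Ina to 0.22 and that of Nefl to 0.11, and left Sncg at 0.33.

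**Figure D3:**
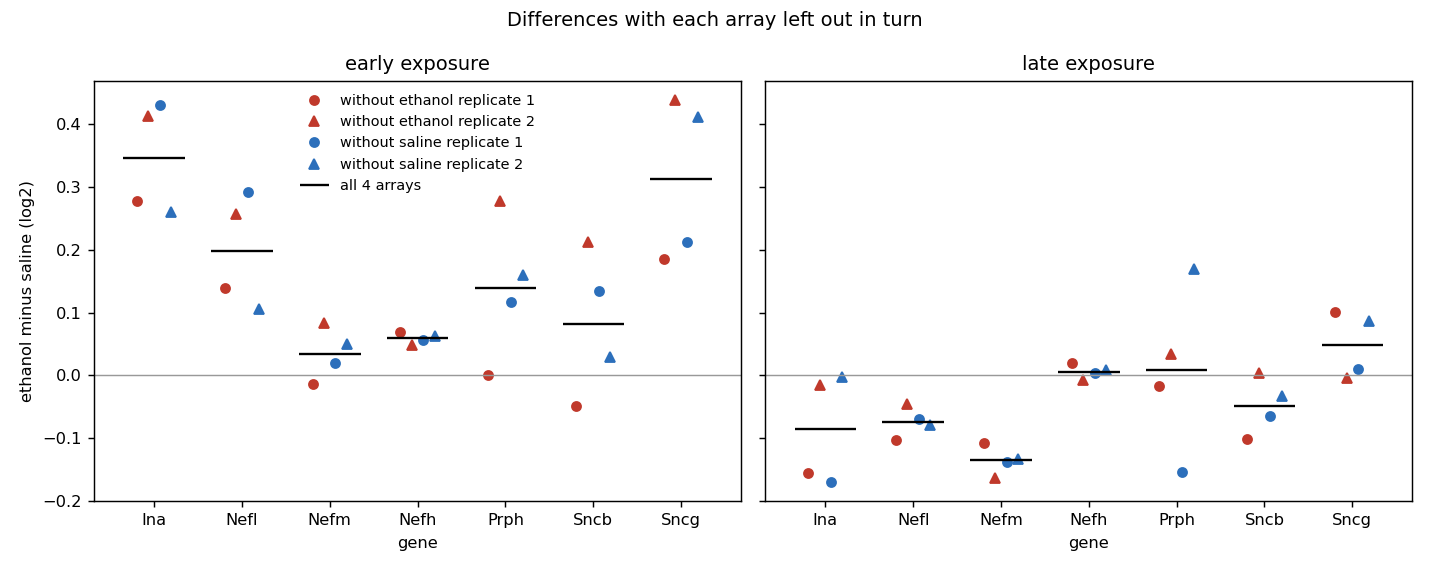
Log2 difference, ethanol minus saline (vertical axis), of each gene (horizontal axis) with each array of the timing left out in turn (red: an ethanol array, blue: a saline array) and with all 4 arrays (black bar). In early exposure Nefm, Prph and Sncb reach 0 or below without ethanol replicate 1 while Ina stays at 0.26 or above, and in late exposure Nefl and Nefm stay below 0.

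The second comparison concerned ethanol on gestational days 14 and 16. The 7 genes did not share a direction, with 3 higher and 4 lower in ethanol and a median log2 difference of -0.049, beside a median of -0.0067 over all probe sets, of which 52.7% lay below 0. The late median was -0.0021 without saline replicate 2, -0.0082 without ethanol replicate 2 and -0.10 without ethanol replicate 1, and it was -0.0047 after quantile normalization. In limma 0 of the 7 genes passed an adjusted p under 0.05 (adjusted p = 1 for each), as did 0% of all probe sets, and 0 of the 7 had an unadjusted p under 0.05 against 583 of the 23410 probe sets. The unmoderated test gave 740 probe sets at an unadjusted p under 0.05, among them Nefm, and 0 after adjustment. By the limma p, none of the 7 genes was past the study's thresholds, which 1.16% of all probe sets were. In 2 of the 7 genes, Nefl and Nefm, both ethanol arrays lay below both saline arrays, as they did in 15.7% of all probe sets, and in 0 of the 7 they lay above, against 12.7%.

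Nefm had the largest late difference among the 7 genes, with an unadjusted limma p of 0.12. It was at 10.18 and 10.24 in late ethanol and at 10.34 and 10.35 in late saline. The groups did not overlap, and the difference was -0.14 (SE 0.077), with a 95% interval from -0.31 to 0.042. Without any 1 late array it was between -0.16 and -0.11. It was -0.070 after quantile normalization and -0.077 after cyclic loess over all 8 arrays.

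Nefl was at 12.15 and 12.09 in late ethanol and at 12.20 and 12.19 in late saline. Both ethanol arrays were the lower ones, and the difference was -0.075 (SE 0.091, 95% interval from -0.28 to 0.13). It was -0.053 with each array centred on its median. After quantile normalization it was -0.0047, after cyclic loess -0.010, and with arrays centred on general neuron genes -0.0068. Ina was at 12.59 and 12.45 in late ethanol and at 12.52 and 12.69 in late saline. Its groups overlapped, with a difference of -0.086 (SE 0.10, 95% interval from -0.33 to 0.15). Leaving out 1 array gave -0.17 and -0.0021 for saline replicates 1 and 2 and -0.16 and -0.016 for ethanol replicates 1 and 2, and quantile normalization gave -0.013. The second Ina probe set was at 11.53 and 11.55 in late ethanol and at 11.71 and 11.72 in late saline. The arrays of each group were close together and the groups apart, with a difference of -0.18 (SE 0.096, 95% interval from -0.40 to 0.043) and an unadjusted limma p of 0.10, which was 1 after adjustment.

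The other 4 genes lay near 0 in late exposure, and in all 4 the ethanol and saline arrays overlapped. Nefh was at 9.71 and 9.74 in late ethanol and at 9.72 in both late saline arrays, a difference of 0.0057 (95% interval from -0.16 to 0.17). Prph, at background, was at 6.70 and 6.65 in ethanol and at 6.51 and 6.83 in saline, a difference of 0.0081 (95% interval from -0.29 to 0.30). The saline arrays of Prph thus lay on either side of the ethanol arrays. Sncb was at 11.60 and 11.49 in ethanol and at 11.58 and 11.61 in saline, a difference of -0.049 (95% interval from -0.29 to 0.19). Sncg was at 8.98 and 9.09 in ethanol and at 8.95 and 9.03 in saline, a difference of 0.048 (95% interval from -0.21 to 0.30). The interval of Sncg reached 0.30, close to its early difference of 0.31, so with 2 arrays a group the data do not show that late exposure left Sncg unchanged.

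In the deposited values the early difference was above the late difference in each of the 7 genes, with Prph at background. Early minus late was 0.43 (SE 0.15) for Ina, 0.27 (SE 0.13) for Nefl, 0.26 (SE 0.16) for Sncg and 0.17 (SE 0.11) for Nefm. It was 0.13 for Sncb and for Prph and 0.053 for Nefh. For the second Ina probe set it was 0.28 (SE 0.14). These values contain the early differences and are given without a test. With arrays centred on general neuron genes, the early difference was below the late one for Nefh, Prph and Sncb. These were at -0.041, 0.039 and -0.018 in early and at 0.073, 0.076 and 0.019 in late exposure. For Ina, Nefl, Nefm and Sncg the early difference stayed above the late one in that setting. In the deposited values the arrays of Nefl alone among the 7 genes were apart in both timings, higher after early and lower after late ethanol. The same pattern was found in 1.14% of all probe sets. The late difference of Nefl was -0.053 with each array centred on its median, but between -0.010 and -0.0047 under the other 3 scalings given above. Its early difference was 0.22 with each array centred on its median. After quantile normalization it was 0.11, after cyclic loess 0.13, and with arrays centred on general neuron genes 0.099. For the early minus late contrast 0 probe sets in the whole table passed the adjusted threshold in limma, and 483 had an unadjusted p under 0.05.

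Genes of the same structures and cells were set beside these differences, and 0 of them passed the adjusted threshold at either timing. Over all probe sets, 40.2% were higher in early ethanol and 52.7% lower in late ethanol. Of 12 general neuron genes, 11 were higher in early ethanol (median 0.10) and 12 of 12 lower in late ethanol (median -0.069), the same directions as the medians of the 7 genes. In the late arrays Celf4, an RNA-binding protein of neurons, was at -0.11 and Eno2, the neuronal enolase, at -0.090. The log2 of the summed intensity of these 12 genes was 15.13 to 15.32 in early ethanol and 15.00 to 15.22 in early saline, and 15.33 to 15.44 in late ethanol and 15.42 to 15.48 in late saline. In the early arrays 0 of the 12 had groups apart, against 7.5% of all probe sets above and 18.9% below, and in the late arrays 5 of the 12 had both ethanol arrays below both saline arrays, against 15.7%. With each array centred on these neuron genes, a setting added after the data were seen, 4 of the 7 genes were above 0 in the early arrays (median 0.039), with Ina at 0.25, Sncg at 0.21 and Nefl at 0.099. Nefm was then at -0.065, Nefh at -0.041 and Sncb at -0.018.

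Of 11 oligodendrocyte genes, 8 were higher in early ethanol (median 0.10) and 9 lower in late ethanol (median -0.12). Both ethanol arrays lay above both saline arrays in 3 of the 11 in early exposure, against 7.5% of all probe sets. They lay below in 6 of the 11 in late exposure, against 15.7%. Their summed intensity was 14.26 to 14.34 (log2) in early ethanol and 14.08 to 14.28 in early saline, and 14.61 to 14.68 in late ethanol against 14.73 to 14.81 in late saline. The 2 with the smallest late p were Cldn11, a tight junction protein of myelin, at -0.24, and Mal, a myelin proteolipid, at -0.19. The part of neuron and oligodendrocyte content in the values of the 7 genes was not tested.

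Genes of the partners of neurofilaments in the axon were read in 5 lists. Of 17 neuronal microtubule genes, 13 were higher in early ethanol (median 0.072) and 15 lower in late ethanol (median -0.066), with the tubulin polymerization protein gene Tppp at -0.19 and Dpysl2, a tubulin-binding protein of growing axons, at -0.15 in the late arrays. Axonal transport and linker genes had medians of 0.0035 and -0.013 over 14 genes, where the dynein chain gene Dync1i1 was at -0.10 and the myosin gene Myo5a at 0.092 in the late arrays. Kinase and phosphatase genes that act on neurofilaments had medians of 0.024 and -0.045 over 12 genes, with Gsk3b at -0.092 and the Cdk5 activator gene Cdk5r2 at -0.090 in the late arrays. Genes of the axon initial segment and node had medians of 0.064 and -0.039 over 12 genes, among which the potassium channel gene Kcna1 was at -0.22 and the spectrin gene Sptbn4 at -0.073 in the late arrays. Presynaptic vesicle and SNARE genes, which share their compartment with Sncb, were higher in 10 of 13 cases in the early arrays (median 0.060) and lower in 12 of 13 in the late arrays (median -0.049), with Syn2 at -0.084 and Dnajc5 at 0.076 in the late arrays.

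Of 13 other intermediate filament genes, lamins of the nucleus included, 9 were lower in early ethanol (median -0.043), beside 59.8% of all probe sets, and 4 of the 13 were above background. Among them Gfap, the filament of astrocytes, was at 0.11 (SE 0.13) and Vim, the filament of glial and vascular cells, at -0.043 (SE 0.094) in the early arrays. The late median was 0.037, with the lens filament gene Bfsp2 at -0.19 and the lamin gene Lmnb2 at 0.13, both at background. Fast projection neuron genes, known from neurons with thick axons, were lower in 5 of 8 cases (median -0.023). Their late values were below 0 in 8 of 8 cases (median -0.069), with the calcium buffer gene Pvalb at -0.22 and the potassium channel subunit gene Kcnab3 at -0.096.

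Lists of other neuron classes and of brain position were also read. Cholinergic neuron genes had medians of 0.013 and 0.076 over 8 genes, and 3 of the 8 lay above background in the early arrays. In the late arrays Ache, the acetylcholinesterase gene, was at -0.18 and the factor gene Lhx8, at background, at 0.15. Monoamine neuron genes had medians of -0.041 and -0.048 over 11 genes. Past the study's thresholds by the limma p in the early arrays were Tph2 and Th, in opposite directions. Tph2, the enzyme of serotonin synthesis, was at 0.33 and at background, and Th, the enzyme of dopamine and noradrenaline synthesis, at -0.53. In the late arrays Th was at -0.22 and the serotonin transporter gene Slc6a4, at background, at 0.17. Genes of peripheral sensory ganglia had medians of -0.041 and 0.037 over 7 genes, all at background, with Mrgprd at 0.12 and Pou4f1 at 0.061 in the late arrays. Genes of hindbrain position had medians of 0.0029 and 0.049 over 14 genes, of which 2 lay above background in the early arrays and 0 in the late arrays, where Hoxd4 was at 0.17 and Hoxa3 at 0.13. Forebrain position genes were lower in 7 of 8 cases in the early arrays (median -0.071), led by Fezf2, a factor of deep cortical projection neurons, at -0.29. In the late arrays their median was -0.00022, with Fezf2 and Neurod6 both at -0.17. Astrocyte genes had early and late medians of -0.015 and -0.074, microglia genes of -0.0073 and 0.00017, and endothelial genes of -0.10 and -0.14. Late values were -0.19 for S100b and -0.088 for Fgfr3 of astrocytes, -0.17 for Tmem119 and 0.074 for Aif1 of microglia, and -0.20 for Flt1 and -0.17 for Pecam1 of endothelium, with Aif1 and Pecam1 at background.

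**Figure D4:**
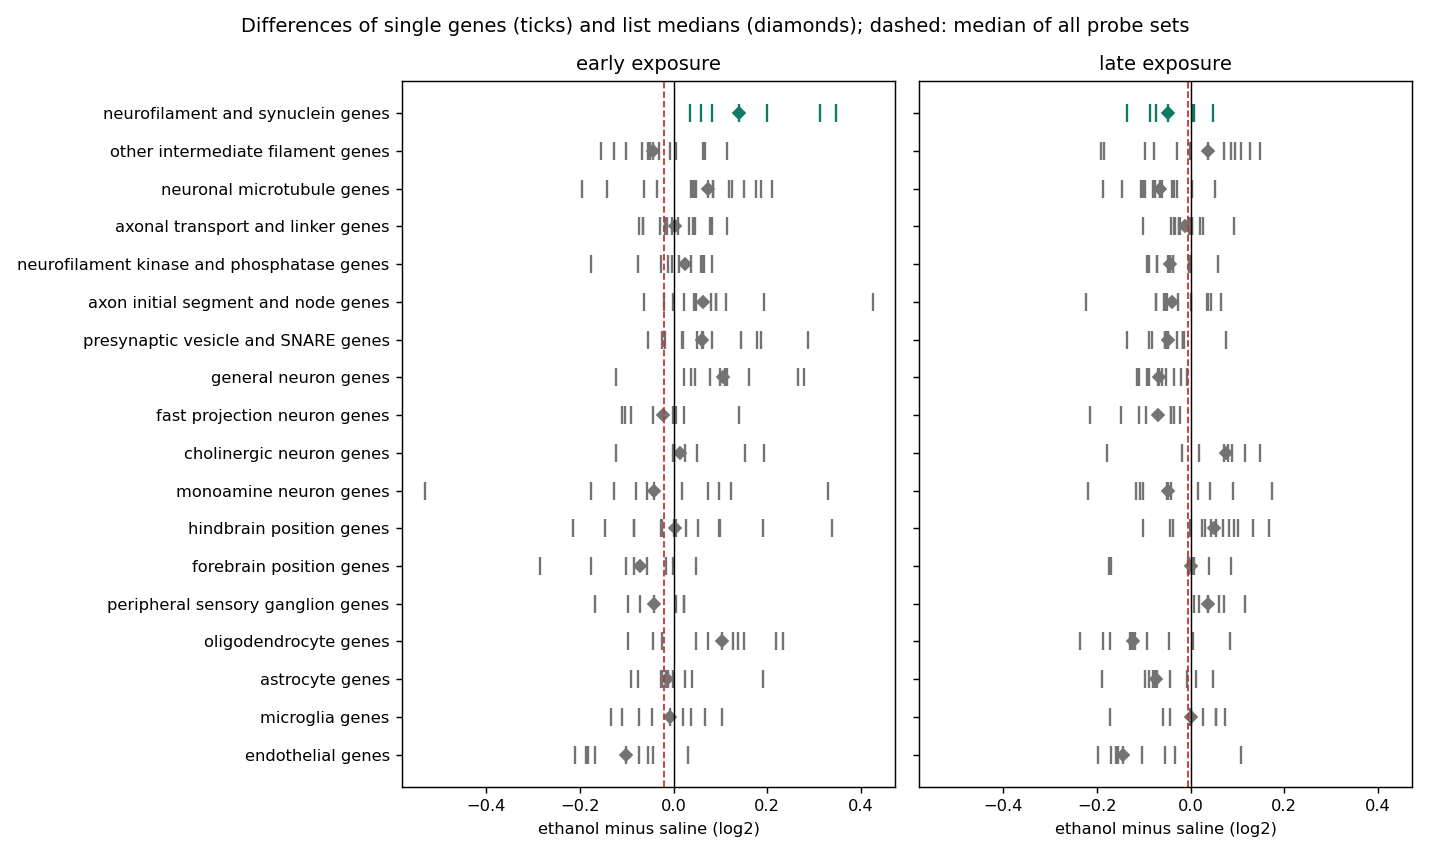
Log2 difference, ethanol minus saline (horizontal axis), of single genes (ticks) with the median of each list (diamonds) for early (left) and late exposure (right), the 7 genes in green and the other lists in grey, with a dashed line at the median of all probe sets. All 7 green ticks lie above 0 in early exposure, as do 11 of 12 general neuron genes. In late exposure the green median is -0.049, beside -0.069 for general neuron genes and 0.076 for cholinergic neuron genes.

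After the mean of each timing was removed, Pearson's r over the 8 arrays was above 0 in all 21 pairs, with a median of 0.48. Within the 4 early arrays all 21 pairs were above 0, and within the 4 late arrays 9 of the 21 were below 0, so the shared sign belonged to the early arrays. It was highest for Ina and Nefl (r = 0.92, Spearman's rho = 0.79) and lowest for Nefh and Sncb (r = 0.0083, rho = 0.095). Nefh and Sncg had r = 0.71 and rho = 0.86, and Nefl and Nefm r = 0.42 and rho = 0.57. These values describe arrays that share their treatment groups and their normalization, and were not tested. The difference between ethanol and saline was not removed, and early values of Ina, Sncg and Nefl were known when the genes were put together. The early signs therefore partly restate that choice, and no share for pairs of other genes is given.

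The genes whose array profile was most like the mean of Ina, Nefl, Nefm and Nefh included 2 of myelin. Among 9221 genes above background at both timings, the highest r over the 8 arrays belonged to Mbp, the myelin basic protein (r = 0.98, rho = 0.95), followed by Litaf, a protein of late endosomes (0.96), Atg13, a part of the autophagy initiation complex (0.95), Mobp, a myelin-associated protein (0.95), and Hdgfl2 (0.95). In all, 17 genes had an r above 0.9. Mbp was at 12.00 and 11.87 in early ethanol and at 11.80 and 11.63 in early saline, and at 12.09 and 12.08 in late ethanol and at 12.20 and 12.21 in late saline. Its arrays were thus higher in early ethanol and lower in late ethanol without overlap, as those of Nefl were. Mbp was picked for its likeness to a mean that includes Nefl, so this shared pattern is not a separate result.

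Other genes were most like Sncg. They were Usp54 (r = 0.96, rho = 0.86), Fuz, a planar polarity effector of cilia (0.93), the transporter gene Abca8b (0.93), Nfasc, the neurofascin of nodes and axon initial segments (0.93), and Cnksr3 (0.92), and 6 genes had an r above 0.9. For Nfasc and Cnksr3 rho was 0.52 and 0.55, well below their r. No gene was in both sets of 5.

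**Figure D5:**
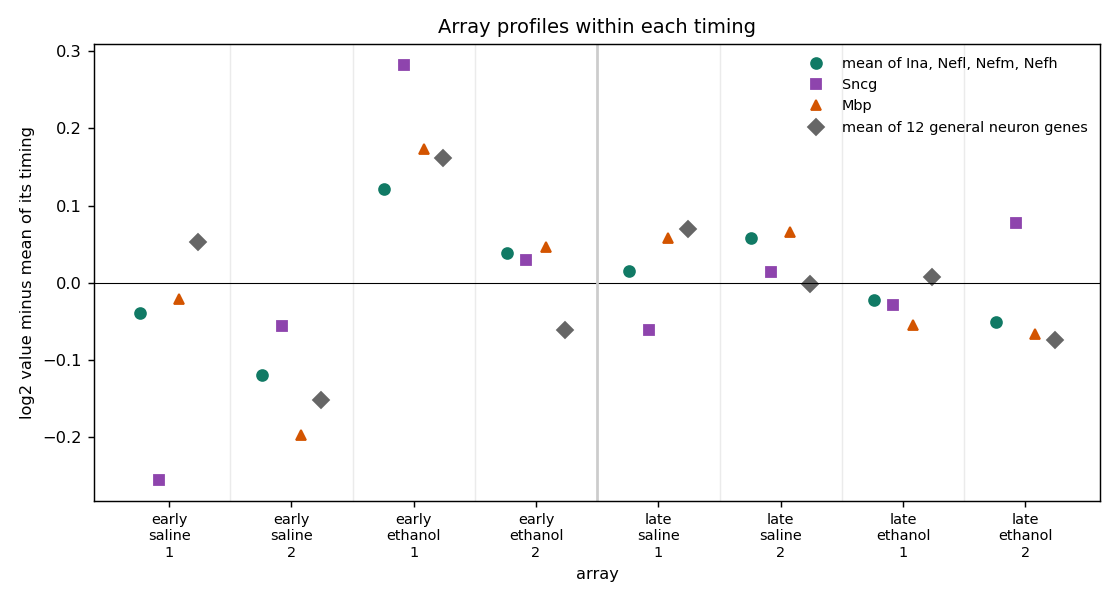
Log2 value minus the mean of its timing (vertical axis) in each array (horizontal axis) for the mean of Ina, Nefl, Nefm and Nefh, for Sncg, for Mbp and for the mean of 12 general neuron genes. The filament mean and Mbp are both highest in early ethanol replicate 1 (0.12 and 0.17) and lowest in early saline replicate 2 (-0.12 and -0.20), while Sncg is lowest in early saline replicate 1 (-0.26).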

How the data were processed

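Per the labels and the study's methods, the arrays were scanned with Command Console, and the authors deposited log2 values, 1 for each probe set, that RMA (quantile-normalized, GC-adjusted) had given in Partek Genomics Suite, given as version 6.6 in the submitters' processing notes. The genome build of the probe sets is not given in the sources used here. Of 35556 probe sets, 12146 without a symbol in the platform annotation were left out. The other 23410 were fitted over all 8 arrays with limma 3.58.1 under R 4.3.3, 1 mean for each group, moderated variances and Benjamini-Hochberg adjustment over all of them, and the fit was tested on simulated data. The members and the 17 lists were chosen with earlier results of these data known. All 7 members are named, with the 5 genes most like them and the 2 genes of each list with the smallest late p. Values of Gfap, Vim and Tph2, and the early values of Th and Fezf2, were picked with their results in view. The alternatives covered the samples fitted, moderation, a replicate block, scaling, filters, trend, array weights, the other probe set of Ina and each array left out. Centring on neuron genes and a crossed block were added after the data were seen. Plots used matplotlib 3.10.9 (Python 3.11.15).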

Additional observations from a re-analysis of the deposited data

Results flagged for a closer look

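Nefl had differences of opposite sign at the timings. Both early ethanol arrays lay above both early saline arrays and both late ethanol arrays lay below both late saline arrays, and the early difference minus the late difference was 0.27 on the log2 scale. Both parts of this pattern depended on the scaling. The early difference of 0.20 was 0.22 with each array centred on its median. After quantile normalization it was 0.11, after cyclic loess 0.13, and with arrays centred on general neuron genes 0.099. The late difference of -0.075 was -0.053 with each array centred on its median. It was -0.0047 after quantile normalization, -0.010 after cyclic loess and -0.0068 with arrays centred on general neuron genes. The difference between the timings was not tested, because the early value was known when the gene was chosen. The same pattern of arrays was found in 1.14% of all probe sets.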

How the results depend on the processing

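The number of arrays limits these results, since each group held 2 arrays, and leaving 1 out leaves an array that is assumed to vary like the other groups. The adjusted threshold was passed by 0 late values of the 7 genes under any alternative run, the lowest adjusted p being 0.65. Over the arrays left out in turn, the early median ranged from 0.069 to 0.26, the number of genes higher from 4 to 7, the number with both ethanol arrays above both saline arrays from 4 to 7, and the number of probe sets with an adjusted p under 0.05 from 0 to 13, with 13 without early ethanol replicate 2. In late exposure the median ranged from -0.10 to -0.0021, and the number with both ethanol arrays above from 0 to 2 and below from 2 to 5. With 1 array of a timing left out, 1 group held a single array, which was compared with both arrays of the other group. Genes whose groups were apart over all 4 arrays then stayed apart, so these counts could rise but not fall. The ranges of these counts therefore cannot show robustness, and no share of all probe sets is given for this looser criterion. Late differences near 0 changed sign, and each range given here covers only the arrays left out in turn, not the scalings. Prph was at -0.027 with quantile normalization and -0.021 with cyclic loess. It was at -0.017 without ethanol replicate 1 and -0.15 without saline replicate 1 (range -0.15 to 0.17). Sncb was at 0.015 with quantile normalization, 0.014 with cyclic loess and 0.0035 without ethanol replicate 2 (range -0.10 to 0.0035). Without that array Nefh was at -0.0082 (range -0.0082 to 0.020) and Sncg at -0.0047 (range -0.0047 to 0.10). With quantile normalization 2 genes had both late ethanol arrays above and 1 below, and with cyclic loess 1 and 1. Centred on the general neuron genes, 4 genes were higher and 2 had both ethanol arrays above in early exposure, 1 probe set passed the adjusted threshold, and in late exposure 0 genes had both ethanol arrays below, the median was 0.019 and Sncb was at 0.019. The cause of these shifts was not tested. The share of all probe sets with groups apart is not given under quantile normalization, cyclic loess or centring on neuron genes. The counts of genes with groups apart under these scalings therefore show nothing particular to the 7 genes. Same-numbered arrays deviated together in the early arrays (r = 0.47 over all probe sets) and apart in the late arrays (r = -0.46). The labels do not say what the number marks, and this was not tested. With the replicate block 0 probe sets passed the adjusted threshold at either timing, as with late numbers crossed. Prph lay in the lowest 50% of probe sets and has no value under that filter.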
